A study of Arabidopsis thaliana with 8 samples.

Results

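Expression was examined for 9 Arabidopsis thaliana genes: ASN1 (AT3G47340, also DIN6), SEN1 (AT4G35770, also DIN1), DIN2 (AT3G60140), DIN10 (AT5G20250), BT2 (AT3G48360) and the trehalose-phosphate synthase family genes TPS8 (AT1G70290), TPS9 (AT1G23870), TPS10 (AT1G60140) and TPS11 (AT2G18700). They were chosen by locus identifier because their transcripts are known to rise when sugar is low, and all 9 were present among the 33602 genes of the count table. Roots came from Col-0 seedlings, the standard laboratory accession, aged 14 d. Seedlings grown on plates with the solvent dimethyl sulfoxide (DMSO) were moved for 4 h to plates with 10 µM mebendazole (MBZ), an anthelmintic of the benzimidazole class whose target in worms is tubulin, or with DMSO alone, so the controls carried the solvent and the transfer too. Each group had 4 libraries, with total counts between 38042437 (DMSO replicate 4) and 54818801 (MBZ replicate 1). The labels do not say whether the 4 libraries of a group came from separate plants or plates, so p-values measure the spread between these libraries, which may be technical. The drug assignment rests on the sample titles and treatment labels, since the MBZ column names hold DMSO and 4h but not MBZ.

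Plant cells short of sugar activate the kinase SnRK1, which switches metabolism from growth to the recycling of amino acids, sugars and lipids. ASN1, SEN1, DIN2 and DIN10 are among the dark-inducible (DIN) genes, whose transcripts rise in darkness and fall when sugar is supplied. Trehalose 6-phosphate, made by the class I enzyme TPS1, follows the sucrose level and inhibits SnRK1, while the class II TPS proteins carry both a synthase-like and a phosphatase-like domain and have mostly shown no synthase activity. The labelled tissue was checked against its markers: all 9 root markers passed the count filter, with 404 to 417 summed CPM in DMSO and 459 to 477 in MBZ without PYK10, a very abundant beta-glucosidase transcript (CPM, counts per 1000000 of the library total after TMM scaling). PYK10 (AT3G09260) itself fell from 13995 ± 100.4 to 8570 ± 10.6 CPM (mean ± SD of 4 libraries), and of the 9 root markers 5 were higher and 4 lower, with a median log2 fold change of 0.23. Among the 9 root markers only NRT2.1 (AT1G08090) changed at least 2-fold, and it was higher in MBZ. Shoot photosynthesis markers were also present at 317 to 335 summed CPM in DMSO and 223 to 230 in MBZ.

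The 9 genes did not move together. ASN1 fell 5.13-fold and DIN2 fell 2.19-fold in mebendazole, whereas SEN1, DIN10 and BT2 rose by 1.18-fold to 1.44-fold. Of the TPS genes, TPS8 fell 1.202-fold, and TPS9, TPS10 and TPS11 rose by 1.04-fold to 1.08-fold. All 9 genes passed an adjusted p of 0.05 in edgeR's quasi-likelihood test, 6 higher and 3 lower, against 66.5% of the 20867 genes tested (32.9% higher and 33.6% lower). A call at this threshold was therefore common in these libraries, and the size of the change separates the 9 genes better than the call does. ASN1 and DIN2 were both called and at least 2-fold lower, 2 of 9 genes, against 3.90% of all genes tested that fell so far; no member was called and at least 2-fold higher (0 of 9), against 3.89%, and 7.79% of all genes passed in either direction. The median log2 fold change was 0.08 over the 9 genes and 0.00027 over all genes tested, and the median absolute change was 0.26 and 0.19. In all 9 genes the 4 MBZ values lay on one side of the 4 DMSO values, as they did for 59.0% of the genes tested. In whole roots, fewer cells of a type and less RNA per cell cannot be told apart.

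**Figure D1:**
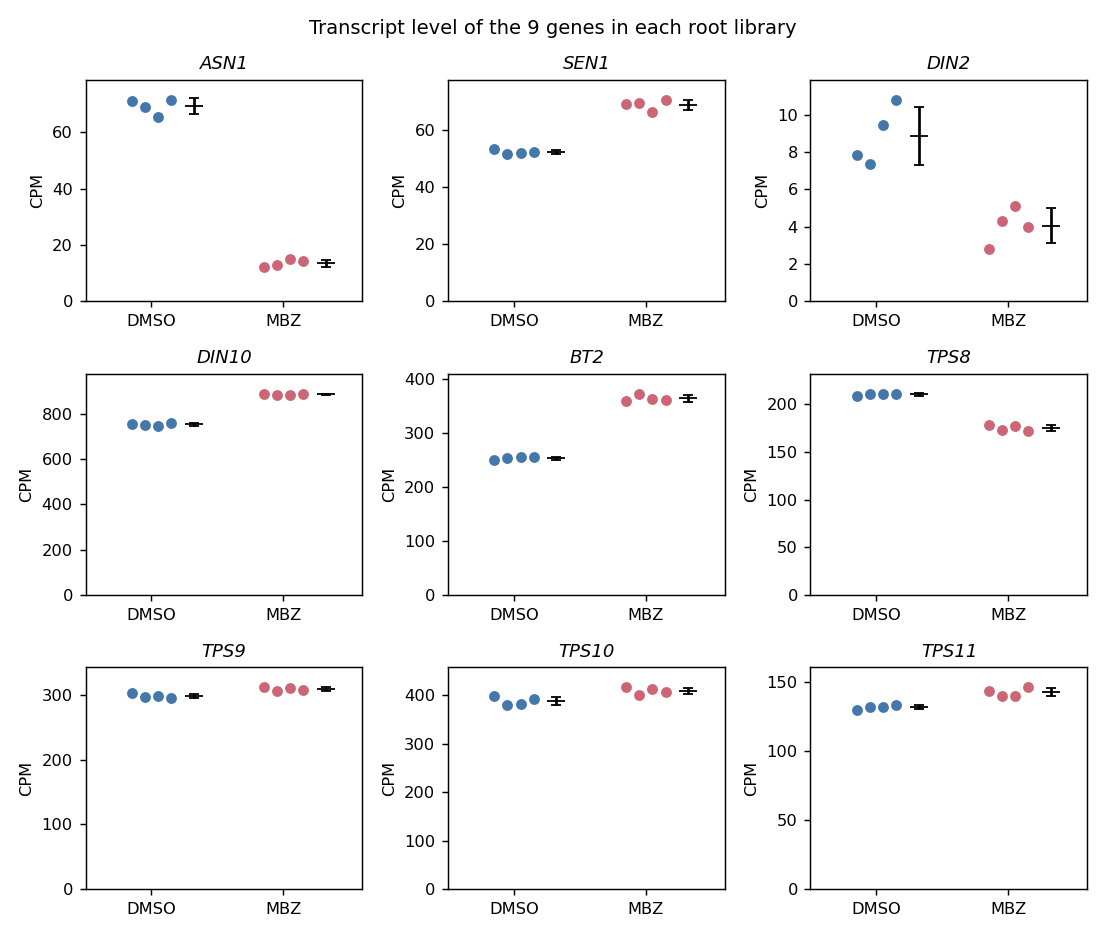
Level of the 9 genes in each library (y axis, CPM, starting at 0; x axis, treatment). Points are single libraries, and the black mark with bars is the mean ± SD of 4 libraries. ASN1 drops from between 65.4 and 71.5 CPM to between 12.1 and 14.9 CPM, while TPS9 and TPS10 shift by a few percent.

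ASN1 encodes a glutamine-dependent asparagine synthetase, which stores nitrogen in a carbon-poor amide when carbon is short. Its level in DMSO was 71.3 CPM in replicate 1, 69.01 in replicate 2, 65.4 in replicate 3 and 71.5 in replicate 4. In MBZ it was 12.1 CPM in replicate 1, 12.8 in replicate 2, 14.9 in replicate 3 and 14.3 in replicate 4. The lowest DMSO library was thus over 4 times the highest MBZ library. The log2 fold change was -2.36 ± 0.04 (SE; edgeR quasi-likelihood adjusted p = 4.89e-71), the 100th lowest of 20867 genes. The SE from the gene's own 8 values was 0.08, larger than the model's, which shares information across genes. Its paralogs ASN2 (AT5G65010) and ASN3 (AT5G10240), which also encode asparagine synthetases, were higher in MBZ, with log2 fold changes of 0.24 and 0.10 (edgeR adjusted p = 4.6e-10 and 0.00619). For ASN3 the groups overlapped, with 31.4 to 35.2 CPM in DMSO and 35.0 to 37.4 CPM in MBZ. ASN2 and ASN3 were named after their values were seen.

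DIN2 encodes the beta-glucosidase BGLU30 and had the fewest reads of the 9, from 154 to 511 counts in a library. Its level in DMSO was 7.85 CPM in replicate 1, 7.35 in replicate 2, 9.45 in replicate 3 and 10.8 in replicate 4. In MBZ it was 2.83, 4.33, 5.08 and 3.97 CPM in replicates 1 to 4. The groups did not overlap, but relative to the mean the libraries varied more than for any other member, with means of 8.86 ± 1.57 CPM under DMSO and 4.05 ± 0.939 CPM under MBZ (SD, n = 4). The log2 fold change was -1.14 ± 0.09 (SE; edgeR quasi-likelihood adjusted p = 7.7e-20), and the SE from the gene's own values was 0.22. With dispersions estimated robustly, a setting added after the data were seen, the adjusted p was 0.0023.

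BT2 encodes a protein with BTB and TAZ domains that acts in responses to sugar, nitrogen and light, and it rose most of the 9. It stood at 249 CPM in replicate 1, 253 in replicate 2, 255 in replicate 3 and 255 in replicate 4 of DMSO. In MBZ the 4 libraries had 359, 372, 363 and 360 CPM. The 2 ranges lay far apart for this gene beside a spread of a few CPM within each group. The log2 fold change was 0.52 ± 0.02 (SE; edgeR quasi-likelihood adjusted p = 1.21e-48), the 1890th highest of 20867 genes. Of its 4 paralogs, BT1 (AT5G63160) changed more, from 123 ± 1.86 to 459 ± 8.98 CPM (mean ± SD of 4 libraries; log2 fold change 1.90). BT4 (AT5G67480) was higher by 0.18, BT5 (AT4G37610) had a log2 fold change of -0.49, and BT3 (AT1G05690) had 0.16 with an edgeR adjusted p of 0.26.

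SEN1 encodes a senescence-associated protein with a rhodanese-like domain. It had 53.4, 51.9, 52.1 and 52.4 CPM in DMSO replicates 1 to 4 and 69.2, 69.5, 66.4 and 70.7 CPM in MBZ replicates 1 to 4. All MBZ libraries were above all DMSO libraries, by a log2 fold change of 0.39 ± 0.03 (SE; edgeR quasi-likelihood adjusted p = 3.03e-25). DIN10, a member of the raffinose synthase family, was the most abundant of the 9, at 756, 752, 744 and 760 CPM in DMSO and 888, 884, 883 and 886 CPM in MBZ. Its log2 fold change was 0.23 ± 0.01 (SE; edgeR quasi-likelihood adjusted p = 1.8e-29), a small difference beside which the spread between libraries was smaller still. DIN10 overlaps an opposite-strand locus, AT5G20260, by 82 bases, and that locus had at most 10 counts in any library. Other raffinose synthase family genes went both ways: RS2 (AT3G57520) fell from 256 ± 3.92 to 130 ± 3.19 CPM, RS4 (AT4G01970) rose from 6.82 ± 0.258 to 21.6 ± 1.022 CPM (SD, n = 4 each), and RS5 (AT5G40390) had a log2 fold change of 0.17.

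The 300 bases before the annotated start of ASN1, DIN2 and BT2 are shown because these had the largest falls and the largest rise of the 9. They were read from RefSeq's TAIR10.1 genome at the starts of its own annotation, while the submitters' processing notes name TAIR10, and positions are in TAIR10.1. All 3 lie on chromosome 3: ASN1 at chr3:17441432-17441731 (minus strand), DIN2 at chr3:22216240-22216539 (plus strand) and BT2 at chr3:17910739-17911038 (minus strand). Capitals mark matches, on either strand, to the G-box CACGTG, the C-box GACGTC, the ACGT core that lies within both boxes, the evening element core AATATCT, or TATCCA.
ASN1: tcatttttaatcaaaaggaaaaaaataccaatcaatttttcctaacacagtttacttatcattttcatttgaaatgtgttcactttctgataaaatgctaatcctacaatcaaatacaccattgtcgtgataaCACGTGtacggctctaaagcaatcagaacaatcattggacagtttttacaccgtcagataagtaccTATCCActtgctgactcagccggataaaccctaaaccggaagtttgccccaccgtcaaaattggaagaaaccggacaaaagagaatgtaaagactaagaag
DIN2: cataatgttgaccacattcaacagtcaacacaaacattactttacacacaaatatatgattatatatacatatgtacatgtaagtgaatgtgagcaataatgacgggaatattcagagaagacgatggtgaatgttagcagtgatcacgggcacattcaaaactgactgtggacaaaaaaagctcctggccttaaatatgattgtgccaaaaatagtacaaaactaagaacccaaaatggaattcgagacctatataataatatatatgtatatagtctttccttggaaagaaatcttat
BT2: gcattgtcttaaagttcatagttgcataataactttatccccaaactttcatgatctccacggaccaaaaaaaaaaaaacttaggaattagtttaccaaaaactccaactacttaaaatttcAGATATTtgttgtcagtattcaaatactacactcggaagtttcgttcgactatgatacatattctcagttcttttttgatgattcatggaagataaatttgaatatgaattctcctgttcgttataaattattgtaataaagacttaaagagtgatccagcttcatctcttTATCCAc
The ASN1 window held a G-box, 167 to 162 bases before the start, and a TATCCA match 101 to 96 bases before it. The BT2 window held an evening element core on the opposite strand, 178 to 172 bases before the start, and a TATCCA match 7 to 2 bases before it, and none of the motifs was found in the DIN2 window (0 matches). Among 26711 protein-coding genes, 7.18% of such windows held the G-box, 2.59% the C-box, 49.1% the ACGT core, 11.9% the evening element core and 16.2% TATCCA. Of the 9 genes, 1 window held the G-box, 0 the C-box, 5 the ACGT core, 1 the evening element core and 4 TATCCA. The last of these motifs was in the windows of ASN1, which fell, and of BT2, TPS10 and TPS11, which rose. An opposite-strand locus, AT3G47341, overlaps ASN1 and its window and had 0 counts in all libraries.

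TPS8, TPS9, TPS10 and TPS11 belong to class II. TPS8 had 208, 211, 211 and 210 CPM in DMSO replicates 1 to 4 and 178, 173, 177 and 172 CPM in MBZ replicates 1 to 4, so every MBZ library was lower. Its log2 fold change was -0.26 ± 0.02 (SE; edgeR quasi-likelihood adjusted p = 6.48e-25). TPS11 had 130, 132, 132 and 133 CPM in DMSO and 143, 140, 140 and 146 CPM in MBZ, a log2 fold change of 0.11 ± 0.02 (SE; edgeR quasi-likelihood adjusted p = 3.69e-07). It rose, and by far less than the 2-fold that ASN1 and DIN2 exceeded in the other direction. TPS10 had 398, 379, 383 and 393 CPM in DMSO and 416, 400, 413 and 407 CPM in MBZ, with a log2 fold change of 0.08 ± 0.02 (SE; edgeR quasi-likelihood adjusted p = 1.13e-05). For TPS10 the gap between the groups, from 397.9 to 400.3 CPM, was narrower than the spread within either of them, and with upper-quartile factors its log2 fold change was 0.05, still past the threshold. TPS9 had 302, 297, 299 and 296 CPM in DMSO and 311, 306, 311 and 308 CPM in MBZ, with a log2 fold change of 0.05 (95% interval 0.02 to 0.08; edgeR adjusted p = 0.00354). The call for TPS9 was lost when counts were scaled by upper-quartile factors (log2 fold change 0.02, adjusted p = 0.236) or by library size alone (0.03, adjusted p = 0.05035), and in limma on log2(RPKM + 1) (0.03, adjusted p = 0.0672).

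Whether the 4 TPS genes changed by different amounts was tested on the log2 ratio of each pair within a library, over 6 pairs. The ratio of TPS8 to TPS9 moved by -0.32 ± 0.01 between DMSO and MBZ, that of TPS8 to TPS10 by -0.34 ± 0.02 and that of TPS8 to TPS11 by -0.38 ± 0.02 (SE). For each of these 3 pairs the 2 groups did not overlap and the two-sided exact permutation p was 0.0286, the smallest that 4 against 4 libraries allow, which became 0.0571 after adjustment over the 6 pairs. The other pairs differed less: TPS9 over TPS11 moved by -0.06 ± 0.02 (exact permutation p = 0.0571), TPS9 over TPS10 by -0.03 ± 0.02 (exact p = 0.229) and TPS10 over TPS11 by -0.03 ± 0.03 (exact p = 0.286), with adjusted values of 0.0857, 0.274 and 0.286. No pair passed 0.05 after adjustment (0 of 6). When only 3 of the 6 pairs are at the smallest p possible, no adjusted value can be below 0.0571. The adjusted test therefore cannot decide whether TPS8 alone changed differently.

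**Figure D2:**
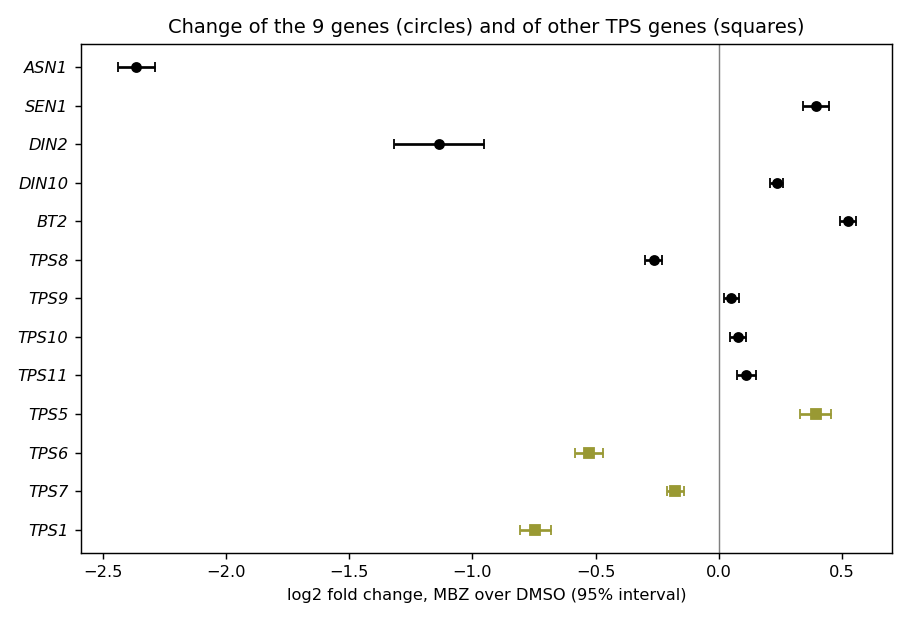
Log2 fold change of MBZ over DMSO (x axis) for the 9 genes (circles) and the other TPS genes with enough reads (squares), with 95% intervals from the edgeR fit. ASN1 (-2.36) and DIN2 (-1.14) stand left of all others, and TPS9 (0.05) is nearest to 0. For ASN1 and DIN2, and less so for TPS10, TPS1 and TPS5, the intervals are narrower than the genes' own spread gives.

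The 3 other class II genes also went in both directions, 1 higher and 2 lower, with a median log2 fold change of -0.18. TPS5 (AT4G17770) rose from 33.2 ± 0.782 to 43.7 ± 2.18 CPM, while TPS6 (AT1G68020) fell from 56.7 ± 0.755 to 39.3 ± 1.096 CPM and TPS7 (AT1G06410) from 195 ± 3.17 to 172 ± 2.016 CPM (SD, n = 4 each). Their log2 fold changes were 0.39, -0.53 and -0.18 (edgeR adjusted p = 1.67e-19, 8.01e-31 and 3.46e-15). TPS1 (AT1G78580), the class I gene for the enzyme that makes trehalose 6-phosphate, fell from 50.6 ± 1.85 to 30.1 ± 1.22 CPM (mean ± SD of 4 libraries; log2 fold change -0.74 ± 0.03, SE). TPS2, TPS3 and TPS4, the other class I genes, had at most 5 counts in any library and were not tested. TPS1 shares 99 bases of its locus with the opposite-strand locus AT1G78570, which had up to 13539 counts, and without a stated strand setting reads in that stretch cannot be assigned.

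Levels of different genes were compared per gene length, with the authors' RPKM values (reads scaled to gene length and to the library total). In DMSO the order of the 9 genes was DIN10 (268 RPKM), BT2 (178), TPS10 (125), TPS9 (102), TPS8 (70.3), SEN1 (54.7), TPS11 (47.5), ASN1 (29.4) and DIN2 (4.65), and no neighbours in this order overlapped in any library. In MBZ it was DIN10 (311 RPKM), BT2 (253), TPS10 (130), TPS9 (104), SEN1 (71.1), TPS8 (57.9), TPS11 (50.8), ASN1 (5.68) and DIN2 (2.101), so SEN1 and TPS8 exchanged places. Summed over TPS5 to TPS11, the class II level was 437 ± 3.15 RPKM in DMSO and 425 ± 4.56 in MBZ (SD, n = 4 each). TPS10 held the largest share of that sum, 28.6% ± 0.413 in DMSO and 30.6% ± 0.202 in MBZ, while the share of TPS8 went from 16.1% ± 0.216 to 13.6% ± 0.149 (SD, n = 4 each).

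**Figure D3:**
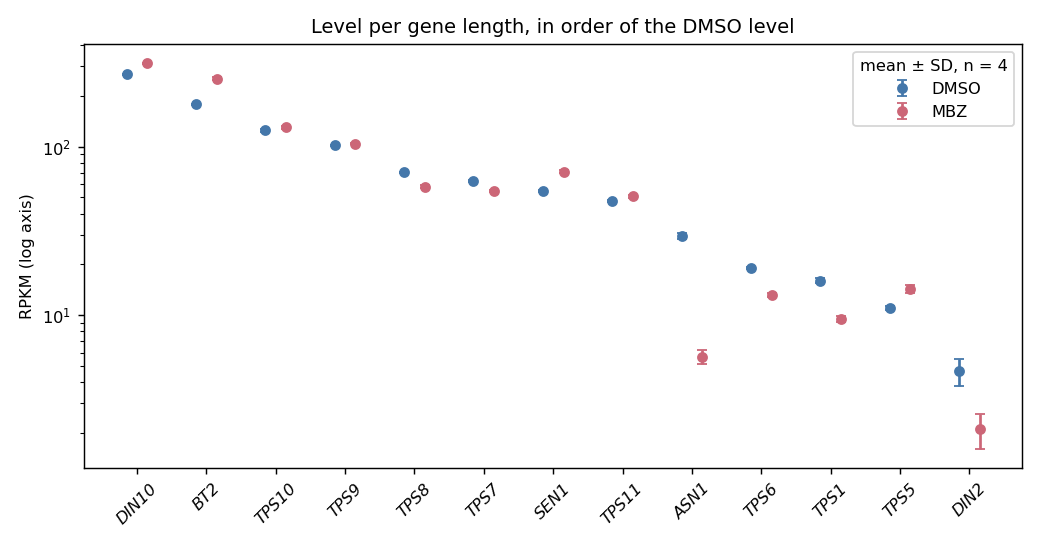
Level per gene length in RPKM (y axis, log scale) of the 9 genes and of TPS1, TPS5, TPS6 and TPS7, ordered by the DMSO level. Points are means and bars SD of 4 libraries, hidden by the point where small; ASN1 drops from 29.4 to 5.68 RPKM, past TPS6, TPS1 and TPS5.

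Further genes of starvation and of trehalose metabolism were listed from general knowledge, with earlier results of these data known. Of 18 other genes known to rise in sugar starvation or darkness, 9 were higher and 9 were lower, all past the threshold, with a median log2 fold change of -0.03. Within this list the genes for breakdown of branched-chain amino acids were higher: BCAT2 (AT1G10070), a branched-chain aminotransferase, rose from 11.3 ± 0.451 to 45.5 ± 1.92 CPM (mean ± SD of 4 libraries; log2 fold change 2.003), and IVD (AT3G45300), MCCA (AT1G03090), DIN4 (AT3G13450) and DIN3 (AT3G06850) had log2 fold changes of 0.62, 0.60, 0.30 and 0.11. These 5 were grouped after their values were seen. DIN11 (AT3G49620), a 2-oxoglutarate-dependent dioxygenase, had 14 to 20 counts in DMSO libraries and 169 to 221 in MBZ libraries (log2 fold change 3.55 ± 0.16, SE). On the other side, PRODH1 (AT3G30775), which degrades proline, GDH1 (AT5G18170), a glutamate dehydrogenase, and MIOX2 (AT2G19800), a myo-inositol oxygenase, fell by 0.75, 0.64 and 0.90 on the log2 scale. MIOX4 (AT4G26260), named after its values were seen, had 75 to 156 counts in DMSO libraries and 10 to 16 in MBZ libraries.

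**Figure D4:**
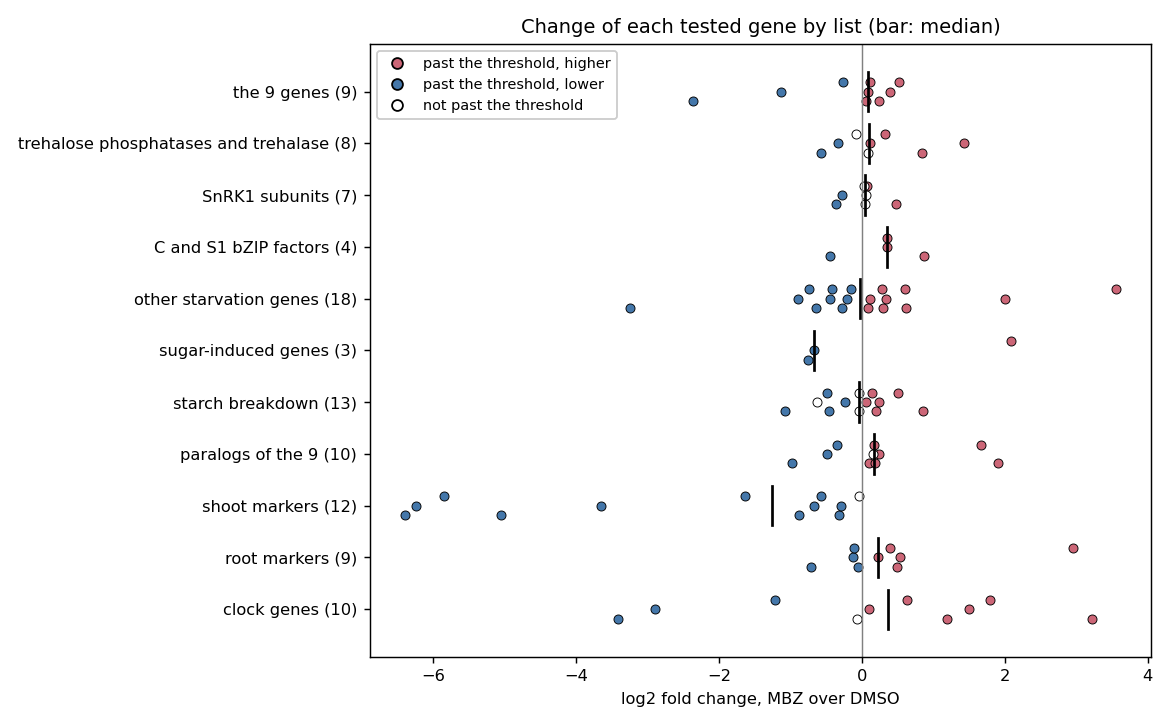
Log2 fold change of MBZ over DMSO (x axis) of each tested gene, by list (y axis, number tested in brackets); colours show the call at an adjusted p of 0.05 and vertical bars the list medians. The 18 other starvation genes lie on both sides of 0, and 11 of 12 shoot markers lie to the left and passed the threshold.

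Of the 7 SnRK1 kinase subunit genes, 2 were higher, 2 lower and 3 not past the threshold, with a median log2 fold change of 0.05. Both catalytic subunit genes were lower, KIN10 (AT3G01090) by a log2 fold change of -0.28 and KIN11 (AT3G29160) of -0.36. AKING (AT3G48530), a gamma-type subunit gene, was higher by 0.48 and AKINB1 (AT5G21170) by 0.07. With upper-quartile factors AKINB1 was at 0.04 and not past the threshold (edgeR adjusted p = 0.0955). SNF4 (AT1G09020), also a subunit gene, had 0.05 and was not past the threshold (edgeR adjusted p = 0.102). Transcription factors of the C and S1 bZIP groups act downstream of SnRK1, and the 4 C genes were tested (3 higher, 1 lower, median 0.35): bZIP63 (AT5G28770) rose from 46.8 ± 1.65 to 85.1 ± 0.806 CPM (mean ± SD of 4 libraries; log2 fold change 0.87), bZIP25 (AT3G54620) and bZIP10 (AT4G02640) were higher by 0.36 and 0.35, and bZIP9 (AT5G24800) had -0.45. All 5 S1 genes (bZIP1, bZIP2, bZIP11, bZIP44 and bZIP53) were listed at 0 in all 8 libraries, as were 7612 of the 33602 genes, so no value can be given for them, and whether these zeros come from the roots or from the read counting was not tested.

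Of 8 tested genes for trehalose 6-phosphate phosphatases and trehalase, 4 were higher and 2 lower, with a median log2 fold change of 0.10. TPPI (AT5G10100) rose from 5.50 ± 0.253 to 14.7 ± 0.557 CPM and TPPB (AT1G78090) from 36.4 ± 1.78 to 64.8 ± 1.06 CPM, while TPPA (AT5G51460) fell from 12.2 ± 0.434 to 8.19 ± 0.834 CPM (SD, n = 4 each). TRE1 (AT4G24040), the trehalase gene, was higher by 0.32 on the log2 scale. TPPC had at most 4 counts, and TPPF and TPPG were listed at 0 in all libraries, where, as for the S1 genes, the source of the zeros was not tested. Of 6 listed genes known to be induced by sugar, 3 were tested, 1 higher and 2 lower (median -0.67): SUS4 (AT3G43190), a sucrose synthase gene, rose from 13.9 ± 0.766 to 58.4 ± 1.63 CPM, SUS1 (AT5G20830), another sucrose synthase gene, fell from 117 ± 1.119 to 69.2 ± 1.70 CPM, and APL3 (AT4G39210), an ADP-glucose pyrophosphorylase subunit, fell from 4.92 ± 0.507 to 3.11 ± 0.414 CPM (SD, n = 4 each). Of 13 genes of starch breakdown, 6 were higher, 4 lower and 3 not past the threshold, with a median log2 fold change of -0.04. PHS2 (AT3G46970), the cytosolic glucan phosphorylase, rose by 0.85 and GWD1 (AT1G10760), the glucan water dikinase, by 0.51 on the log2 scale, while SEX4 (AT3G52180), a phosphoglucan phosphatase, fell by 1.07 and BAM1 (AT3G23920), a plastid beta-amylase, by 0.24.

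Transcripts of other processes that follow light and time of day changed as well. Of 12 tested shoot photosynthesis markers, 11 were lower and past the threshold, with a median log2 fold change of -1.26. LHB1B2 (AT2G34420) and PSBO1 (AT5G66570), the most abundant of them, had log2 fold changes of -0.29 and -0.67. RBCS2B (AT5G38420) and CAB2 (AT1G29920), with -6.39 and -6.25, had means of only 0.697 and 3.18 CPM in DMSO. RBCS2B had 0 to 1 count in MBZ libraries. Of 10 clock genes, 6 were higher and 3 lower (median 0.37, and 479 to 484 summed CPM in DMSO against 959 to 971 in MBZ): LHY (AT1G01060) and CCA1 (AT2G46830), morning-expressed MYB factors, had log2 fold changes of -3.42 and -2.90, and the evening-expressed genes TOC1 (AT5G61380), GI (AT1G22770), LUX (AT3G46640) and ELF4 (AT2G40080) rose by 1.496, 1.19, 1.79 and 3.22. DIN genes and ASN1 are known to follow light and the time of day, the labels give no time of harvest, and the part of clock phase, or of the shoot transcripts, in the changes of the 9 genes was not tested.

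For each of the 9 genes the gene with the closest pattern was the one at the smallest Euclidean distance between log2(CPM + 0.5) values, centred per gene, over the 8 libraries, among 18917 genes with a mean of at least 50 counts. The nearest to DIN10 was SNRK2.2 (AT3G50500; distance 0.0186), to TPS9 the cellulose synthase gene CESA1 (AT4G32410; 0.0244), to TPS11 GAE5 (AT4G12250; 0.0282), to TPS10 ITN1 (AT3G12360; 0.0364), to TPS8 PDIL1-1 (AT1G21750; 0.0366), to BT2 the sulfotransferase family gene ST4B (AT1G13420; 0.0385) and to SEN1 AT4G26130 (0.0488). ASN1 had no such close neighbour, with its nearest, AT3G12900, at 0.218 and a log2 fold change of -3.15, and DIN2 likewise, with AT1G24735 at 0.409. The distance is not scaled for the spread between libraries, and of the 9 genes DIN2 and ASN1 had the largest SEs from their own values (0.22 and 0.08). The libraries fall into 2 groups by treatment, so a close gene is one with a like change in log2(CPM + 0.5) and a like spread. At low levels that change is smaller than the fold change, as for AT3G12900, with means of 4.14 CPM in DMSO and 0.474 CPM in MBZ.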

How the data were processed

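Root RNA of 4 DMSO and 4 MBZ libraries was measured by sequencing, and samples were grouped by their titles. The authors deposited raw read counts per gene (33602 genes) and RPKM values for 17872 of them. The submitters' processing notes name STAR 2.7.0a, edgeR 3.36.0 and build TAIR10. The counting program, annotation and strand setting are not given in the sources used here. RPKM divided by count was a constant per gene times a constant per library, within a relative spread of 1.65e-14.

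Counts were tested with edgeR 4.0.16 (R 4.3.3): quasi-likelihood test, TMM factors, filterByExpr (20867 genes kept), treatment as the single factor, Benjamini-Hochberg adjustment over all genes tested and a threshold of 0.05. SEs were derived from each gene's F statistic. The fit was tested on simulated data. Alternatives used DESeq2 1.42.0, limma 3.58.1, other scalings, filters and left-out libraries. A floor of 3 counts was between 0.0547 and 0.0789 CPM, which covers counting error only. No 50-base stretch of the members' longest RefSeq transcripts occurred elsewhere in the TAIR10.1 genome (0%).

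Names were matched to RefSeq TAIR10.1 (32835 of 33602 identifiers, and all 122 listed). The members and lists were chosen with earlier results of these data known. The naming rule took the members, TPS1 to TPS7 and the nearest gene in pattern of each member. From each list it took up to 4 genes with the smallest p past the threshold, and the largest change. PHT1;1, EXPA7, NRT2.1, CAB1 and CAB3 were also taken by it, but their values are not given. Other listed genes in the text were named after their values were seen.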

Additional observations from a re-analysis of the deposited data

Results flagged for a closer look

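Each tested member, TPS gene and gene that the naming rule took from a list was checked in both groups for a library far from the other 3. The check used Dixon's ratio (its distance to the closest other value as a share of the whole range) at the 95% level. Genes nearest in pattern were not checked, nor were genes named after their values were seen, such as ASN2, BT4 and DIN4. Of 110 groups of 4, 5 stood apart (4.55%), and chance gives about 1 in 20. TPS8 in DMSO replicate 1 was low (ratio 0.876), at 208.1 CPM against 210.5 to 210.8 in the other libraries. SUS4 in DMSO replicate 4 was high (0.891), at 15.04 CPM against 13.4 to 13.6. APL3 in DMSO replicate 4 was low (0.848), at 4.17 CPM against 5.11 to 5.27. Among genes with almost no reads in MBZ, RBCS2B in replicate 3 was high (ratio 1), at 0.0225 CPM against 0, and CAB2 in replicate 1 was high (0.945), at 0.0734 CPM against 0.0225 to 0.0253. The MBZ libraries had 0 to 1 count of RBCS2B and 1 to 4 counts of CAB2. When a single library has a read and the others have none, the ratio is 1 whatever the level. RBCS2B and CAB2 belong to families of near-identical copies, so the split of reads between copies is uncertain.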

How the results depend on the processing

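Each of the 9 genes kept its direction under all 20 alternatives, with a log2 fold change of -2.42 to -2.19 for ASN1 and -1.27 to -0.87 for DIN2. All 9 passed the threshold in DESeq2, and with the replicate number as a block (9 genes, 6 higher and 3 lower; 13786 of all genes). Same-numbered libraries did not deviate together (mean correlation -0.0136, against 0.00453 for other pairs), so the numbers show no pairing. Against a 1.5-fold change 2 of the 9 genes (ASN1 and DIN2) passed, with 0 higher and 2 lower, 35 of the listed other genes in place of 87, and 2564 of all genes in place of 13877, since that test asks for a larger change. TPS9 also lost its call with upper-quartile factors, library size alone and all 3 RPKM settings (adjusted p between 0.05035 and 0.236); the cause was not tested. Upper-quartile factors moved the median of all genes by -0.029 while the change of TPS9 was 0.05. The pairs of TPS genes kept their direction with each library left out, where the smallest adjusted p was 0.0857, since 4 against 3 libraries cannot pass 0.05; ratios of RPKM, a count times constants, test nothing further. Few reads stand behind DIN11 in DMSO (at most 20 counts a library) and MIOX4 in MBZ (at most 16).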
